A study of Mus musculus with 8 samples.

Results

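Adam20, Adam21, Adam24, Adam25, Adam26a, Adam26b, Adam29, Adam30, Adam34 and Adam39 are mouse ADAM genes of the testis. They are testases and related testis ADAM genes whose coding sequence is not interrupted by an intron. The set does not hold all such genes, as Adam1b and Adam6a, among others, also have 1 coding exon. They were taken from the deposited expression table by gene symbol, and all 10 were found among its 23983 genes.

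RNA-seq was done on total RNA from a piece of testis of C57BL/6J mice at day (d) 12, 16 and 24 after birth and of adult mice. The labels give the genotype as C57BL/6J for every group and name no treatment. Each stage is represented by a single library, so the spread between animals is unknown and no stage comparison was tested. Values are FPKM, fragment numbers scaled by transcript length and by the size of the library, so that genes of different length can be compared. Intervals are 95% intervals from the number of fragments behind a value and cover counting error only. The animals' ages in the adult group, and how many animals gave each library, are not given in the sources used here.

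ADAM proteins are membrane proteins with a disintegrin domain that can bind integrins and a metalloprotease domain that, where its zinc-binding site is intact, can cut other proteins. They are made with a prodomain, which proprotein convertases remove from many of them in the secretory pathway. In the male germ line, fertilin and cyritestin ADAMs take part in sperm migration and egg coat binding, while the testases are known as germ cell ADAMs that keep the protease motif.

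The zinc-binding site separates the genes that could encode a protease from those that lack the motif, and its DNA is therefore shown first. The motif has 3 histidines that hold the zinc ion and 1 glutamate that takes part in catalysis. It was found once in the coding sequence of 9 of the 10 genes. The lines below give its 33 bases, 5′ to 3′ on the coding strand, from the RefSeq models on GRCm38.p6. Capitals mark the codons of the histidines and of the glutamate.
Adam20: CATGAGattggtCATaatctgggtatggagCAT
Adam39: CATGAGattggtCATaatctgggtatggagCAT
Adam25: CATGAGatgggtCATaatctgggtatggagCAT
Adam24: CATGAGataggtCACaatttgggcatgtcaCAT
Adam26a: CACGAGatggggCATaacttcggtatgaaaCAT
Adam26b: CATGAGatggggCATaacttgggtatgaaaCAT
Adam34: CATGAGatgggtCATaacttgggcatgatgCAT
Adam21: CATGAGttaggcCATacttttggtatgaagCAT
Adam30: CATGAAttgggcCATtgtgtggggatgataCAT
The stretch is the same in Adam20 and Adam39. On chromosome 8 it lies at chr8:40795917-40795949 in Adam20, chr8:40825636-40825668 in Adam39, chr8:40754761-40754793 in Adam25 and chr8:40680518-40680550 in Adam24, all on the plus strand. It lies at chr8:43569435-43569467 in Adam26a, chr8:43520947-43520979 in Adam26b and chr8:43651554-43651586 in Adam34, on the minus strand. In Adam21 it is at chr12:81559922-81559954 on the minus strand and in Adam30 at chr3:98161861-98161893 on the plus strand. Each stretch is exonic and coding.

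Adam29 does not hold the motif. When its coding sequence was aligned to that of Adam26a, the matching stretch was the one below, at chr8:55872374-55872406 on the minus strand, with the bases at the positions of the same codons in capitals.
Adam29: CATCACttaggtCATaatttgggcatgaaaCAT
It keeps 3 of the 4 codons, those of the histidines, while the glutamate codon is not kept. Of 11 other sperm ADAM genes, Adam1a and Adam1b, which belong to the fertilin group, hold the motif. Of 13 ADAM genes listed as widely expressed, 9 hold it, among them Adam10 and Adam17, the sheddases of many cell types. Adam11, Adam22, Adam23 and Adamdec1 do not. The name is that of the list, and expression outside the testis was not examined here.

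All 10 genes have their coding sequence in 1 exon, of 2094 bp in Adam26a to 2292 bp in Adam29. Adam30 consists of a single exon, whereas the other 9 have a noncoding first exon in front of an intron of 1348 bp in Adam25 to 33311 bp in Adam29. These 9 genes are thus intronless only as to their coding part. Of them, 7 lie in 2 groups on chromosome 8. Adam24, Adam25, Adam20 and Adam39 lie in this order on the plus strand within 151785 bp (40675077 to 40826861, GRCm38). Adam26b, Adam26a and Adam34 lie on the minus strand within 145697 bp (43519864 to 43665560). Adam29 is also on chromosome 8 (55870912 to 55906964), Adam21 on chromosome 12 (81558575 to 81568474) and Adam30 on chromosome 3 (98160634 to 98164169).

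Adam25 and Adam39 have coding sequences that are 96.1% identical, and Adam26a and Adam26b 94.2%. Adam20 is 90.2% identical to Adam25 and 89.7% to Adam39, and Adam34 is 89.6% identical to Adam26a. Fragments can be shared among such genes. Of all 50-base stretches of the transcript, 34.5% of those of Adam20, 34.1% of Adam25, 38.5% of Adam39, 37.7% of Adam26a, 38.1% of Adam26b and 28.2% of Adam34 were found elsewhere in the genome. Those of Adam34 lay mostly in its neighbours Adam34l and Gm5347, and those of the other 5 mostly in one another. None of those of Adam21, Adam24, Adam29 and Adam30 were. The level of each of the 6 similar genes is therefore uncertain as to which copy the fragments came from, and the sums of Adam20, Adam25 and Adam39 and of Adam26a, Adam26b and Adam34 are given as well.

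At d12 and d16, 9 of the 10 genes were at or close to 0, and at d24 and in adult testis all 10 were expressed. Adam30 stood apart with 259 fragments at d16, beside 0 to 15 for each of the other 9. Fragments on all 10 genes numbered 45 at d12 and 294 at d16, against 11041 at d24 and 9844 in the adult. Without Adam30, 29, 35, 7933 and 8264 were left. In RNA from testis tissue, more cells of a type and more RNA per cell cannot be told apart, and the mixture of germ cells differs between these ages.

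**Figure D1:**
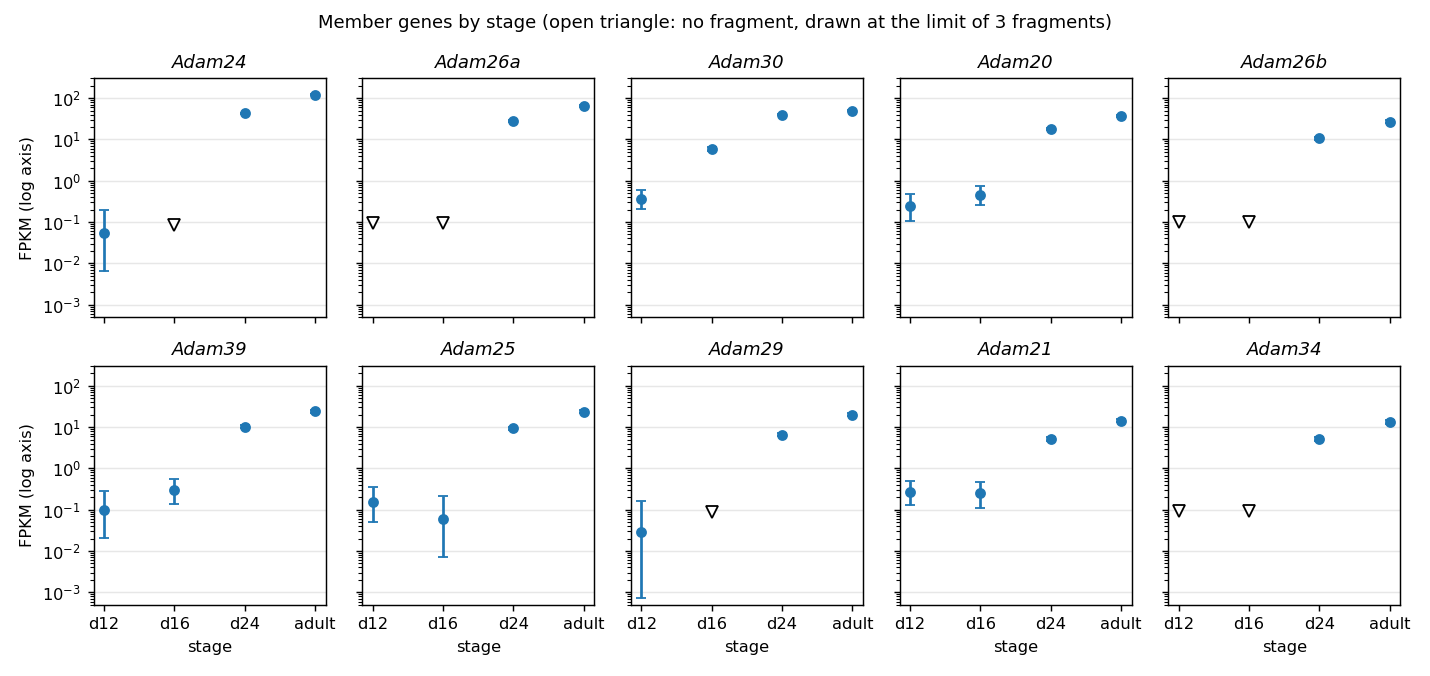
FPKM of each of the 10 genes in the 4 libraries, on a log axis, 1 panel per gene in the order of adult level. Points are single libraries, bars are 95% counting intervals, and open triangles stand for no fragment and are drawn at the limit of 3 fragments. At d16 Adam30 lies at 5.86 FPKM and the other 9 genes at 0.463 FPKM or less, while at d24 all 10 lie at 5.14 FPKM or more.

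Adam24, the testase with the highest adult level, was at 0.0556 FPKM at d12, from 2 fragments. It had no fragment at d16, which allows up to 0.0832 FPKM as the limit of 3 fragments. At d24 it was at 42.9 FPKM (41.3 to 44.6) and in adult testis 122.1 FPKM (117.9 to 126.4). The d24 level was 516.1-fold the limit of 3 fragments at d16, and the adult level was 2.85-fold that of d24 (2.70 to 3.00).

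Adam26a and Adam26b are a closely similar pair on the minus strand. Adam26a had no fragment at d12 or d16, with limits of 0.0961 and 0.0963 FPKM, and was at 27.7 FPKM (26.3 to 29.1) at d24 and 64.3 FPKM (61.0 to 67.7) in adult testis. Adam26b also had none at d12 or d16 (limits 0.0996 and 0.0998 FPKM) and was at 10.6 FPKM (9.76 to 11.5) and 26.6 FPKM (24.4 to 28.9). Adam34, a testase next to them, had none at d12 or d16 (limits 0.0956 and 0.0958 FPKM) and was at 5.17 FPKM (4.59 to 5.81) and 13.4 FPKM (11.9 to 15.0). These were the only members of the 10 without a fragment at both early stages. At d24 their levels were 288.0-fold, 106.4-fold and 54.0-fold their limits of 3 fragments at d16, in the same order. Their summed level was 0 FPKM at d12 and d16, 43.5 FPKM at d24 and 104.2 FPKM in adult testis, an adult level 2.40-fold that of d24 (2.26 to 2.54). This sum depends little on how fragments were divided among the 3 genes, as their transcripts are of similar length (2405 to 2507 bases). It can depend on fragments shared with Adam34l and Gm5347.

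Adam20, Adam25 and Adam39 form the other set of similar genes, beside Adam24. Adam20 was at 0.247 FPKM at d12 (8 fragments) and 0.463 at d16 (15 fragments), then at 18.2 at d24 (17.1 to 19.3) and 37.5 in the adult (35.1 to 40.1). Adam25, a testase, was at 0.152 FPKM (5 fragments), 0.0610 (2 fragments), 9.27 (8.50 to 10.1) and 23.7 (21.8 to 25.8). Adam39 was at 0.0981 FPKM (3 fragments), 0.295 (9 fragments), 10.3 (9.42 to 11.2) and 24.5 (22.5 to 26.7). The intervals of all 3 genes overlapped between d12 and d16. From d16 to d24, Adam20 was 39.2-fold higher (23.7 to 70.3) and Adam39 34.8-fold (18.2 to 76.4). For Adam25 the ratio was 151.9 with a wide interval of 42.0 to 1262, since only 2 fragments stand behind its d16 value. Summed in the order of the stages, the 3 genes were at 0.497, 0.819, 37.7 and 85.7 FPKM, and the adult sum was 2.27-fold that of d24 (2.14 to 2.42).

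Adam21 and Adam29 lie outside both groups, and none of their 50-base stretches occurs elsewhere. Adam21 was at 0.274 FPKM at d12 (10 fragments) and 0.247 at d16 (9 fragments), then at 5.14 at d24 (4.61 to 5.73) and 14.4 in the adult (12.9 to 15.9). Adam29, which lacks the glutamate of the protease motif, was at 0.0291 FPKM at d12 (1 fragment), had no fragment at d16 (limit 0.0876 FPKM) and was at 6.61 FPKM (5.98 to 7.29) at d24 and 20.2 FPKM (18.5 to 22.1) in adult testis. With Adam34, Adam21 had the lowest levels of the 10 genes at d24 and in adult testis. Adam21 was 20.8-fold higher at d24 than at d16 (10.9 to 46.0), and Adam29 was at least 75.5-fold above its limit at d16.

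Adam30, the only one of the 10 without any intron, was at 0.372 FPKM at d12 (0.207 to 0.587), 5.86 at d16 (5.17 to 6.62), 40.02 at d24 (38.6 to 41.5) and 50.1 in the adult (47.7 to 52.7). At d16 it alone made up most of the 6.93 FPKM that the 10 genes summed to. It was 15.8-fold higher at d16 than at d12 (9.80 to 28.8), 6.83-fold higher at d24 than at d16 (6.01 to 7.78), and in adult testis 1.25-fold the d24 level (1.18 to 1.33). The last ratio turned below 1, to 0.898, when the 4 libraries were rescaled to the same FPKM sum. Its d12 value corresponds to 16.5 fragments on the RefSeq length and not to a whole number, so that its intervals are approximate.

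With the threshold of the study, under 2 FPKM at every earlier stage and at least 2 FPKM at the stage in question, Adam30 was first expressed at d16 and the other 9 genes at d24. Of all 23983 genes, 3.55% were first expressed at d16, 6.3% at d24 and 1.98% only in the adult. The study further set a limit of under 30 FPKM without naming the stage. Read at d24, 8 of the 9 genes met it and Adam24 did not. Read in adult testis, Adam24, Adam26a and Adam20 did not meet it, with 122.1, 64.3 and 37.5 FPKM. The share of all genes that met this limit was not computed.

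Steps between stages were also compared on the log2(FPKM + 0.1) scale, which understates changes of low genes. All 10 genes passed the filter of at least 1 FPKM in 1 library, through their d24 and adult values. From d12 to d16, 1 of them, Adam30, was at least 2-fold higher and 0 were at least 2-fold lower, beside 12.5% higher and 4.98% lower among the 15219 genes tested. From d16 to d24, all 10 were higher, beside 28.2% higher and 9.2% lower among all genes. From d24 to adult testis, 9 were higher and 0 lower, beside 12.7% higher and 2.95% lower, with Adam30 the exception. The median log2 change of the 10 genes was 0 from d12 to d16, 5.79 from d16 to d24 and 1.33 from d24 to adult testis. Over all genes tested it was 0, 0.13 and -0.01. At the step from d16 to d24 the log2 changes ran from 2.75 for Adam30 and 3.92 for Adam21 to 8.12 for Adam26a and 8.75 for Adam24.

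The deposited values summed to 283580 FPKM at d12 and 307964 at d16, but to 472726 at d24 and 659202 in the adult, and the scaling between libraries is not stated. Rescaled to the same sum, the median log2 change of all genes became -0.13, -0.52 and -0.48 at the 3 steps, and 19.2% of genes were higher and 31.6% lower from d16 to d24 in place of the values above. From d24 to adult testis 7.01% were then higher and 10.9% lower. On that scale all 10 genes were still at least 2-fold higher from d16 to d24. From d24 to adult testis 2 passed 2-fold on the scale with the pseudocount, in place of 9. When libraries were rescaled by their upper quartile 7 did, beside 9.39% higher and 5.05% lower among all genes. With the same sum, the plain ratio of adult to d24 was 1.48 for Adam20, the lowest of the 9 genes other than Adam30, and 2.19 for Adam29, the highest. With upper quartile scaling as well, all 10 genes were at least 2-fold higher from d16 to d24, beside 23.5% of all genes.

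**Figure D2:**
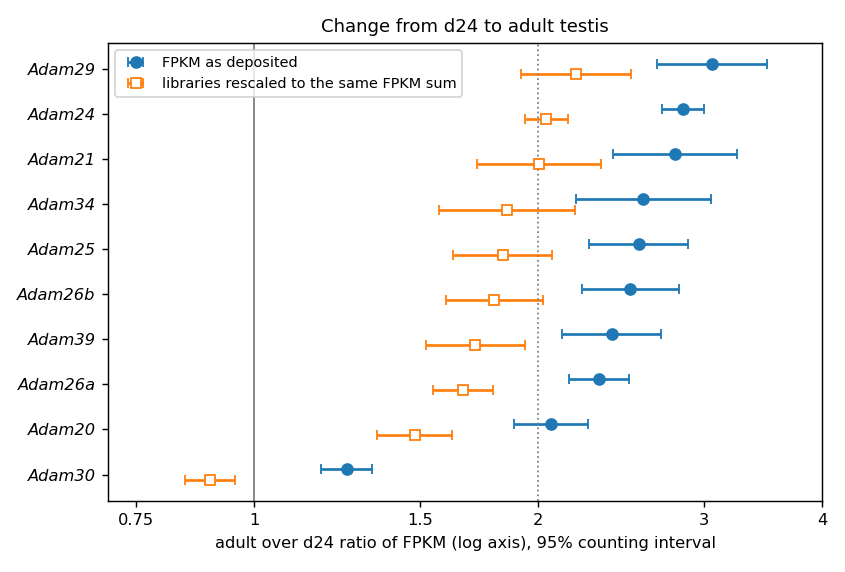
Ratio of adult to d24 FPKM on a log axis for each of the 10 genes, as deposited (filled circles) and with libraries rescaled to the same FPKM sum (open squares). Bars are 95% counting intervals, the solid line marks 1 and the dotted line 2. Adam30 lies apart at 1.25, below the other 9 genes at 2.06 to 3.06, and it falls below 1 after rescaling.

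Ratios between genes within a library do not depend on the scaling between libraries. Adam30 stood at 0.933 of the Adam24 level at d24 and at 0.411 in adult testis, so that its level relative to Adam24 was 0.440-fold that of d24 (0.406 to 0.477). Relative to Adam24, Adam20 was 0.725-fold (0.653 to 0.806), Adam26a 0.815-fold (0.745 to 0.892) and Adam39 0.841-fold (0.737 to 0.959) in adult testis against d24. For Adam21, Adam25, Adam26b, Adam29 and Adam34 this ratio lay between 0.880 and 1.07, with intervals that include 1. In counting error alone, then, these 5 genes could not be told apart from Adam24 in their step from d24 to adult testis, while Adam30 differed most.

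The 10 genes spanned a range from 5.14 to 42.9 FPKM at d24 and from 13.4 to 122.1 FPKM in adult testis. At d24 the order of levels was Adam24, Adam30, Adam26a, Adam20, Adam26b, Adam39, Adam25, Adam29, Adam34 and Adam21. Adam24 and Adam30 were close, with a ratio of 1.07 (1.02 to 1.13). In adult testis the order was Adam24, Adam26a, Adam30, Adam20, Adam26b, Adam39, Adam25, Adam29, Adam21 and Adam34, and Adam24 was 1.899-fold above Adam26a (1.78 to 2.02). At both stages, the neighbours Adam26b and Adam39, Adam39 and Adam25, and Adam21 and Adam34 did not differ beyond counting error. Of the 10 genes, 6 held the same rank at both stages.

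Within each group on chromosome 8 the levels were unequal, although all of these genes were low at d16 and high at d24. In adult testis Adam24, the first gene of its group, was at 122.1 FPKM and its neighbours at 23.7 to 37.5 FPKM. In the other group Adam26a, the gene in the middle, was at 64.3 FPKM and its neighbours at 13.4 and 26.6 FPKM. Adam24 made up 24.4% of the summed level of the 10 genes at d24 and 30.8% in adult testis.

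**Figure D3:**
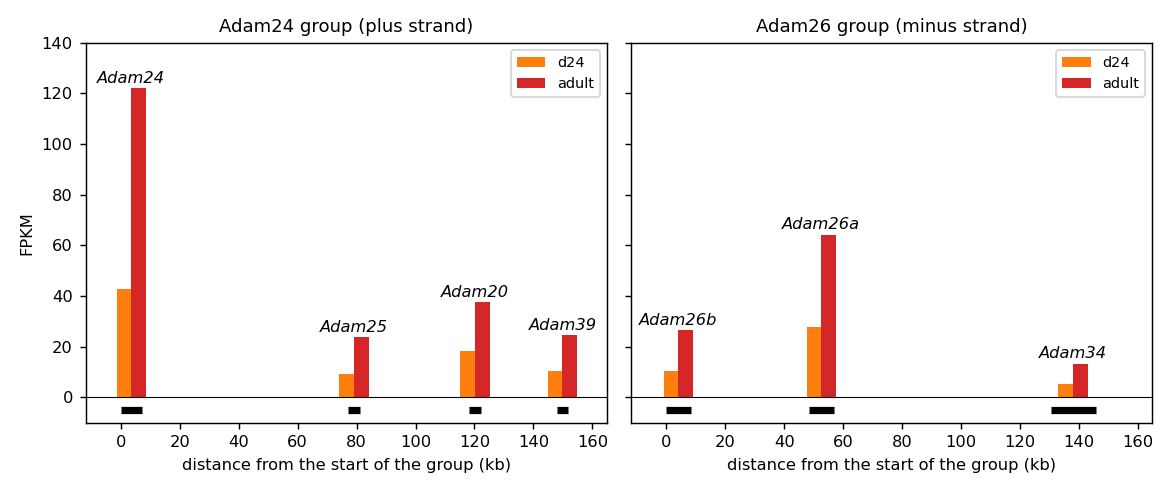
FPKM at d24 and in adult testis (bars, 1 library each) at the place of each gene in the groups on chromosome 8, as distance in kb from the start of the group. Black boxes below the axis are gene spans. Adam24 and Adam26a stand out at 122.1 and 64.3 FPKM in adult testis, while the other 5 genes lie between 13.4 and 37.5 FPKM.

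Genes around both groups on chromosome 8 were mostly expressed from d12 on. Within 250 kb of either group, 9 other genes of the table were found once related testis ADAM genes were left aside, and 8 of these had at least 2 FPKM at d12 already. From d16 to d24, 0 of the 9 were at least 2-fold higher, beside 21.5% of all genes, both without the filter on low values. The share of all genes with at least 2 FPKM at d12 was not computed, and with 9 genes these counts are small. Slc7a2, an amino acid transporter gene that starts 35479 bp beyond Adam39, was at 14.7, 8.80, 4.79 and 3.27 FPKM from d12 to adult testis. Cnot7, a deadenylase gene, was at 55.1, 52.2, 52.6 and 49.001 FPKM. On the side of the Adam26 group only Zfp42 lay within this distance, with 3.06, 9.51, 15.9 and 12.3 FPKM. Around Adam21 on chromosome 12, Gm4787 was at 1.86 FPKM at d16 and 31.4 at d24, and Ttc9 at 0.979 and 9.38. Adam4, a related testis ADAM gene, was at 2.61 and 10.4. The other genes of the table within this distance of Adam21, namely Slc8a3, Synj2bp, Cox16, Med6 and Map3k9, were not 2-fold higher at this step. These neighbours were named after their values were seen.

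Related genes beside Adam34 that are not among the 10 were likewise at 0 before d24 and had lower levels. Adam34l, listed in the table as Gm5346, was at 0 FPKM at d12 and d16, 2.68 at d24 and 6.54 in adult testis. Gm5347 was at 0, 0, 1.38 and 2.58 FPKM. Adam34 lies within the span of Adam34l on the same strand, and Adam34l and Gm5347 share 50-base stretches with Adam34, so fragments of the 3 genes cannot be fully told apart.

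To place the onset among germ cell stages, the d16 and d24 values were expressed as percent of the adult value and set beside marker genes. At d16 the 10 genes were at 0 to 11.7% of adult, with a median of 0.129%. The 6 markers of pachytene spermatocytes, the cells of late meiotic prophase, were at 1.23 to 156.7%, with a median of 24.3%. Round spermatids are the haploid cells that follow meiosis, and their 6 markers were at 0 to 8.35% with a median of 0.253%, and the 6 markers of elongating spermatids at medians of 0.0196% at d16 and 11.1% at d24. At d24, the 10 genes were at a median of 39.5% of adult (32.7 to 79.8%). The medians were 97.8% for the pachytene markers (40.4 to 122.5%) and 33.9% for the round spermatid markers (19.2 to 78.2%). These ranges overlapped, and the pachytene marker Pgk2, with 1.23% at d16 and 40.4% at d24, lay near the median of the 10 genes at d24. Among these germ cell lists, the median of the 10 genes lay between those of the elongating and the round spermatid markers at d16, and nearest to that of the round spermatid markers at d24.

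Adam30 was apart with 11.7% of adult at d16 and 79.8% at d24. Values close to these were found for the pachytene marker Ldhc, a germ cell lactate dehydrogenase gene, with 14.1% and 81.9%. They were also close for Acr, the gene of the acrosomal protease acrosin and the earliest of the round spermatid markers used, with 8.35% and 78.2%. The next highest of the 10 genes was Adam21 at d16, with 1.72%, and Adam20 at d24, with 48.5%. Markers of somatic cells moved as well. The 6 Leydig cell markers summed to 131.6, 82.4, 153.4 and 580.7 FPKM in the order of the stages. Their median was 40.6% of adult at d24, near the 39.5% of the 10 genes, and 30.3% at d16, far above the 0.129% of the 10 genes. From d24 to adult testis 4 of the 6 were at least 2-fold higher, with a median log2 change of 1.32 beside 1.33 for the 10 genes. The 6 Sertoli cell markers went down in sum from 180.6 FPKM at d12 to 63.0 FPKM in adult testis, while the elongating spermatid markers went from 13.5 to 26956 FPKM in sum. The part of these shifts in cell type markers in the values of the 10 genes was not tested.

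**Figure D4:**
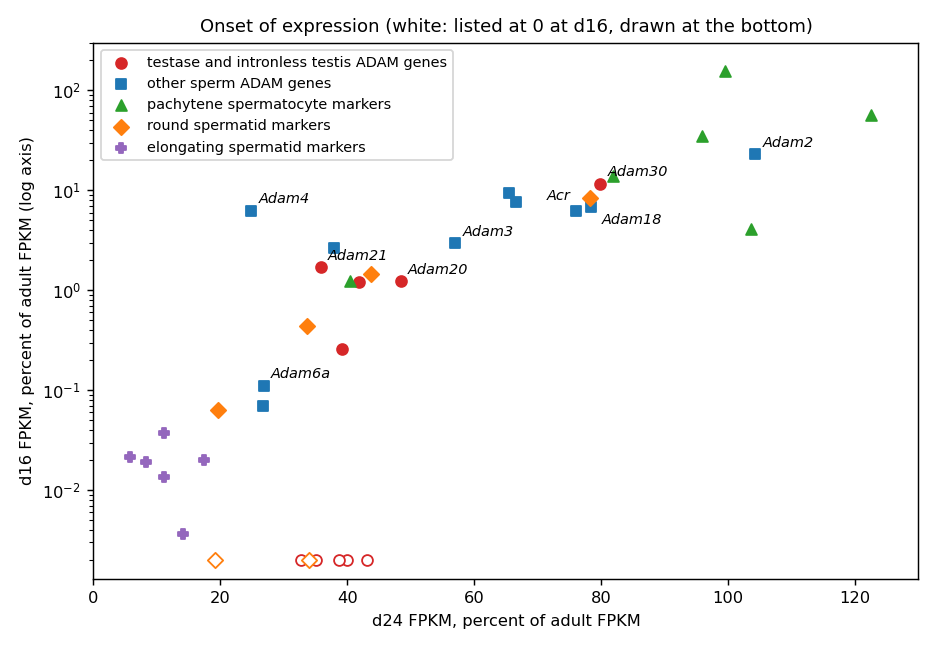
FPKM at d16 (log axis) against FPKM at d24, both as percent of adult FPKM, for the 10 genes, other sperm ADAM genes and germ cell markers. Each point is a gene, and white points are at 0 at d16 and drawn at the bottom. Adam30 lies at 11.7% and 79.8%, near Adam18 and Acr, while the other 9 genes lie between 32.7% and 48.5% on the d24 axis.

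The other sperm ADAM genes were higher in sum, and 8 of them were first expressed at d16. Of these 8, Adam1a (1.68 FPKM at d12 and 2.56 at d16) and Adam4 (1.58 and 2.61) passed the limit of 2 FPKM only narrowly. Other thresholds were not tried for this list. It includes the genes of the fertilin and cyritestin proteins, which act in sperm and egg binding, but also others such as Adam5 and Adam32. The ranges of single genes overlapped, with Adam24 at 122.1 FPKM in adult testis above 6 of the other sperm ADAM genes that were detected there. Of 11 such genes, Adam7, known from the epididymis, was listed at 0 in adult testis, and the other 10 ranged from 41.6 FPKM for Adam4 to 1137 FPKM for Adam5. Their sum went from 257.5 FPKM at d16 to 2058 at d24 and 3160 in the adult, against 6.93, 175.9 and 396.8 FPKM for the testases and their relatives. The latter thus made up 16.5% of the sum of both lists at d12, when both were low, 2.62% at d16, 7.88% at d24 and 11.2% in the adult. From d12 to d16, 6 of the 10 other sperm ADAM genes that passed the filter were at least 2-fold higher, from d16 to d24 all 10, and from d24 to adult testis 4, with 0 lower at any of these steps.

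Read by the number of coding exons, the other sperm ADAM genes fell into 2 sets of 5. This division was made after the values were seen. Adam2, Adam3, Adam5, Adam18 and Adam32, with 15 to 22 coding exons, were all first expressed at d16. They were at 2.95 to 23.2% of adult at d16 and at 57.0 to 104.3% at d24. Adam1a, Adam1b, Adam4, Adam6a and Adam6b, with 1 coding exon, were at 0.0699 to 6.27% at d16 and at 24.9 to 76.1% at d24. Of the latter, 3 were first expressed at d16, with Adam1a and Adam4 only narrowly past the limit, and 2 at d24.

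Among these, the genes with 1 coding exon included both patterns seen in the 10 genes. Adam1b, the fertilin alpha gene of sperm, was at 0.249, 6.07, 73.7 and 96.9 FPKM, with an adult level 1.31-fold that of d24, and was close to Adam30 in its percentages. Adam6a, whose close relative Adam6b may share fragments with it, was at 0, 0.0638, 15.4 and 57.4 FPKM, with an adult level 3.72-fold that of d24. Adam2, the fertilin beta gene, was at 0.908, 49.01 and 220.5 FPKM and at 211.4 FPKM in adult testis, with an adult level 0.959-fold that of d24.

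The ADAM genes listed as widely expressed did not share the course of the testases. Of 13 listed, 10 passed the filter, and 0 were 2-fold higher from d12 to d16. From d16 to d24, Adam11 was higher and Adam12, a metalloprotease gene of mesenchymal cells, was lower, and from d24 to adult testis Adam8 and Adam22 were higher. With libraries rescaled to the same FPKM sum, 0 were higher at either step, and 5 were lower from d16 to d24 and 2 from d24 to adult testis. Adam9 had the highest adult level of this list, with 12.7 FPKM after 21.7, 18.1 and 13.96 FPKM. Adamdec1 was listed at 0 in all 4 libraries. The lowest adult value among the testases and their relatives, that of Adam34 at 13.4 FPKM (11.9 to 15.0), overlapped with that of Adam9 within counting error.

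Of the proprotein convertases, the enzyme family that removes prodomains, 6 of 9 passed the filter. Pcsk4, the convertase of germ cells, was at 0.191, 2.48, 13.7 and 19.5 FPKM in the order of the stages and was the only one 2-fold higher at any step. It passed 2-fold from d12 to d16 and from d16 to d24. Pcsk5 was lower from d16 to d24 and Furin, the general convertase of the secretory pathway, was lower from d24 to adult testis, and it went from 7.05 FPKM at d12 to 1.62 FPKM in adult testis. After rescaling to the same sum, 4 convertases were lower from d16 to d24 and 2 from d24 to adult testis.

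The sequence upstream of the RNA start was available for 6 of the 10 genes, Adam20, Adam21, Adam25, Adam26b, Adam29 and Adam34. The 250 bases upstream of Adam20 and Adam25 were 96.7% identical, with a shared run of 88 bases. Adam26b was 51.9 and 57.6% identical to them, but the longest run it shared with each was the same word of 12 bases, TGTTGCTAGGCA. This word was chosen after the sequences were seen. The 150 bases upstream of the RNA start of these 3 genes are shown because they are the members that share the word, which is in capitals. They are taken from RefSeq on GRCm38.p6, 5′ to 3′ on the strand of the gene, at chr8:40793123-40793272 (plus strand) for Adam20, chr8:40752058-40752207 (plus strand) for Adam25 and chr8:43528138-43528287 (minus strand) for Adam26b.
Adam20: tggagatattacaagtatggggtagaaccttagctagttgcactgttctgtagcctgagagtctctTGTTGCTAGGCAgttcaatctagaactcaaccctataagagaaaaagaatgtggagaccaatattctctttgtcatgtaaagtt
Adam25: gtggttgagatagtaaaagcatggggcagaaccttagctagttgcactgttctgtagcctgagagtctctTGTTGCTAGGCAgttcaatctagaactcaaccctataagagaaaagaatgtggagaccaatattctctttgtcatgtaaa
Adam26b: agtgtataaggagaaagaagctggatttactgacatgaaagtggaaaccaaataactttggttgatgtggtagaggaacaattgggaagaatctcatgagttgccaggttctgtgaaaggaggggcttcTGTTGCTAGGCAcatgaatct
The word starts 84 bases before the RNA start in Adam20, 80 in Adam25 and 21 in Adam26b. Searched on both strands in the 250 bases upstream, it was found in 10 of 27025 genes (0.037%), these 3 included. Of the other 7, Adam34l is the relative described above. The table holds values for 1700007K13Rik (0.695, 0.398, 17.7 and 39.8 FPKM), 4933432I09Rik (0.174, 0, 2.40 and 5.71 FPKM), Erich2 (0.730, 15.6, 115.4 and 212.9 FPKM) and H2-Ob (0 from d16 on). As Adam20 and Adam25 are copies of each other in this region, they are not separate cases of the word.

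Words known from other testis promoters were also searched in these 6 sequences. The cAMP response element TGACGTCA, bound by CREM in spermatids, was found in 0 of the 6 upstream sequences and in 1.62% of all genes, and its core TGACG in 0 of 6 and in 17.9%. The word TATAAA was found in Adam29 alone and in 13% of all genes. With 6 sequences, such counts are near the share over all genes. All words were searched on both strands, and TGACG lies within TGACGTCA.

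The genes outside the 10 whose course over the 4 libraries was most like that of Adam24 were Ttc23l, Arrdc5, 4930578I06Rik, Spata31 and Nt5c1b. Likeness was the Euclidean distance between centred log2(FPKM + 0.1) profiles, from 0.151 for Ttc23l to 0.251 for Nt5c1b. Ttc23l was at 0.0414, 0, 37.6 and 107.9 FPKM. Among the 10 genes Adam26a was nearest to Adam24, at rank 45 with a distance of 0.676, and Adam30 farthest, at rank 1434 with 5.44. Since 4 libraries define the profile, and the distance counts the size of the step into d24, the weaker members came out as less alike even where they had no fragment before d24.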

How the data were processed

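RNA-seq libraries of d12, d16, d24 and adult testis (C57BL/6J, 1 per stage) were analysed. The 4 H3K27Ac ChIP-seq samples are not analysed here. The authors mapped strand-specific pairs to GRCm38 with TopHat2 2.1.0 and Bowtie 1.1.2, keeping 1 alignment per pair, and deposited FPKM values. These came from Cuffdiff (Cufflinks 2.2.1), run with corrections for multi-reads and bias but none for effective length. These steps decide to which of several similar genes a fragment is counted.

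Fragments were recovered as whole multiples of the FPKM of 1 fragment, found from 14604 genes with 1 curated RefSeq transcript, and 91.8 to 92.4% of values up to 20 fragments lay within 0.05 of a whole number. At 1 kb of transcript, 3 fragments equal 0.24 FPKM at d12 and d16, 0.137 FPKM at d24 and 0.337 FPKM in the adult. The 95% intervals were exact Poisson intervals for levels and exact Clopper-Pearson intervals for ratios of 1 gene between stages or of 2 genes within a library. Ratios of sums used a normal approximation on the log scale. Changes relative to Adam24 used the exact interval of a conditional odds ratio. Log2 changes used a pseudocount of 0.1 FPKM and genes with at least 1 FPKM in 1 of 4 libraries. Coding sequences were aligned globally with biopython 1.88 (match 2, mismatch -1, gap open -5, gap extend -1), and copies were searched with blastn 2.17.0. A near copy is at least 95% identical over 80% of the length. The software was scipy 1.17.1, pandas 2.3.3 and numpy 2.4.6 under Python 3.11.15. Scripts were tested on simulated data. No protein sequences were used here, and coding DNA took the place of the planned protein comparison.

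The members, the gene lists and the alternatives were chosen with earlier results of these data known. Named were all 10 members, the highest and lowest gene of each other list and those that went against it, and the 5 genes most like the highest member. Genes outside this rule serve as examples or were chosen after their values were seen.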

Additional observations from a re-analysis of the deposited data

How the results depend on the processing

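With 1 library per stage, leaving out a replicate was not possible. No paired analysis was possible because each stage has 1 library and no test was run. Thresholds of 1 and 5 FPKM, other pseudocounts, no filter on low values, a fold of 4 and other scalings of the libraries were tried, 132 alternatives for 39 results. Of these, 84 left the result within its error or within 1.5 times its count, 47 moved it and 1 reversed it. With libraries rescaled to the same FPKM sum, the adult to d24 ratio of Adam30 turned to 0.898, the number of members at least 2-fold higher from d12 to d16 became 2 in place of 1 (11.5% of all genes) and from d24 to adult 2 in place of 9 (7.01% of all genes), and the median log2 change from d24 to adult became 0.85 in place of 1.33. A fold of 4 left 0 members for the step from d24 to adult, and 3.75% of all genes. The adult to d24 ratio of the summed members, 2.26 (2.19 to 2.32), became 1.62 with the same FPKM sum, 1.91 with upper quartile scaling and 2.07 without Adam24. A pseudocount of 1 FPKM gave a median log2 change of 3.20 from d16 to d24 in place of 5.79. Under each threshold and scaling tried, 9 members were first expressed at d24 and 1 at d16. Members with a near copy numbered 4, and 6 at 90% identity over 50% of the length. Member levels at d12 and d16 that rest on 1 to 3 fragments have wide intervals, and lower levels were not detectable at this depth.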
